A study of Mus musculus with 9 samples.

Results

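Collagens are the main structural proteins of the extracellular matrix, and the genes that encode their chains were followed here in mouse primary renal tubular epithelial cells. The genes were taken from the deposited expression table as every protein-coding entry whose symbol was Col, a type number, the letter a and a chain number. This gave 43 of the 31167 genes in the table, of which 20 had a mean of at least 0.5 FPKM over all libraries and were tested, among 13985 genes tested in all. FPKM is the number of sequenced fragments for each kilobase of a gene's exons at a common library depth, so that levels of different genes can be set side by side.

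The cells came from the kidney of C57BL/6 mice, whose age the labels do not give, and RNA-seq was done on 3 libraries in each of 3 groups. Sham cells were the reference group. The paper describes them as untreated, and the labels do not say whether they had a mock transfection. H/R cells were kept for 6 h at 1.0% oxygen in medium without glucose and then for 18 h in complete medium with normal oxygen, a culture model of ischaemia and reperfusion. EGR1OV cells were transfected with a plasmid that drives Egr1, a zinc-finger transcription factor induced by stress, from the CMV promoter. The paper lists H/R and this plasmid as treatments of separate groups. No group with an empty plasmid was compared here, a transfected culture can hold cells without the plasmid, and the labels do not give H/R for EGR1OV, so Egr1 itself and the transfection cannot be told apart. The labels do not say that the 3 libraries of a group came from separate cultures or animals, and the p-values then measure only the spread between these libraries. The 2 comparisons with Sham share the same Sham libraries, so their results are not independent and are given side by side.

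Egr1 stood at 6.198, 6.91 and 6.09 FPKM in Sham, 8.57, 7.59 and 7.48 FPKM after H/R and 45.7, 42.2 and 40.1 FPKM in EGR1OV, which followed the labels. The recovered depth ran from 16183617 to 18384025 reads per library, and no library stood apart in depth. Of 11 tubule markers in the table, Krt8, a keratin of simple epithelia, was at 1003 to 1026 FPKM in Sham, while Slc34a1 (proximal tubule) was at or below 0.0362 FPKM in every library and Umod (thick ascending limb) was at 0 in all 9. The summed level of the tubule markers lay between 1976 and 2016 FPKM in Sham, between 1831 and 1915 after H/R and between 1274 and 1381 in EGR1OV. Its members did not move together. Krt8, Krt18, Krt19 and Lrp2 were called lower in EGR1OV than in Sham (log2 differences of -0.71, -0.73, -0.92 and -1.05, limma). Epcam was called higher (0.39, adjusted p = 9.13e-06, limma). Cdh1 (0.23), Pax2 (0.36), Pax8 (0.04) and Cdh16 (-0.30) did not reach 1.3-fold on the log2(FPKM + 1) scale used for calls. In bulk RNA, fewer cells of a type and less RNA per cell cannot be told apart.

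Identical or related collagen chains wind together into a triple helix. Fibrillar collagens (types I, II, III, V, XI, XXIV and XXVII) form the fibrils of stroma and scar, type IV builds the network of basement membranes, and other types link fibrils, anchor epithelia or carry a membrane span. Tubular cells rest on a basement membrane in which the α1 and α2 chains of type IV form one network and the α3, α4 and α5 chains another, the latter being the network affected in Alport syndrome. Interstitial fibrillar collagen is the material that accumulates in kidney fibrosis.

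In these cells collagen expression was mostly that of basement membrane genes. The FPKM of all 43 genes summed to 1326 ± 47.2 in Sham (SD, n = 3), 1427 ± 8.43 after H/R and 995.9 ± 22.2 in EGR1OV. The 6 type IV genes made up 79.8% ± 0.0492 of that sum in Sham, 78.8% ± 0.105 after H/R and 74.6% ± 0.442 in EGR1OV. The 11 fibrillar genes made up 8.12% ± 0.0586, 8.75% ± 0.0690 and 11.1% ± 0.246 in the same order. The type IV share was therefore lowest and the fibrillar share highest in EGR1OV, with no overlap of the 3 groups in either share. The summed level of the fibrillar genes itself was 107.6 ± 3.25 FPKM in Sham, 124.8 ± 1.38 after H/R and 110.4 ± 4.72 in EGR1OV.

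**Figure D1:**
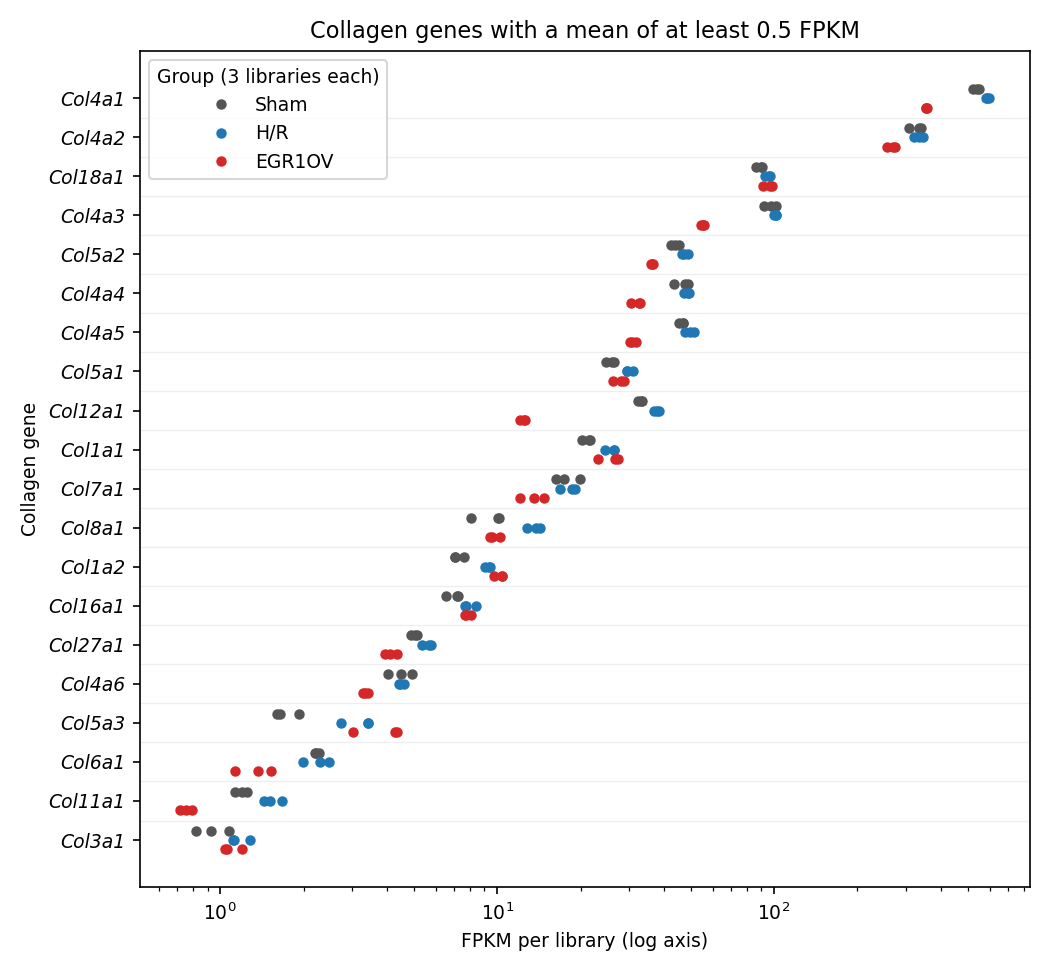
FPKM of the 20 collagen genes that were tested, in each of the 9 libraries, on a log axis. Each point is 1 library, coloured by group, and genes are ordered by their mean. Col4a1 and Col4a2 stand above 250 FPKM in every library, and Col12a1 is the gene whose EGR1OV points lie farthest below the others.

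Of the 20 tested collagens, 9 were called in EGR1OV against Sham at 1.3-fold and an adjusted p under 0.05 (limma on log2(FPKM + 1), Benjamini-Hochberg over all tested genes), 2 higher and 7 lower. Over all genes tested the called share was 16.4%, with 9.87% higher and 6.51% lower. After H/R, 4 of the 20 were called at 1.2-fold, all higher, where 4.25% of all genes were called, 1.6% higher and 2.65% lower. Between EGR1OV and H/R directly, 10 of the 20 were called at 1.3-fold, all lower in EGR1OV, against 18.9% of all genes, 11.9% higher and 6.94% lower. Where no collagen was called in a direction, 0 had an unadjusted p under 0.05 on the lower side after H/R and 1 on the higher side in EGR1OV against H/R, and voom on recovered reads also called 0 in each. The median collagen differed from Sham by -0.28 on the log2 scale in EGR1OV and by 0.13 after H/R, beside medians of 0.02 and -0.03 over all genes tested, and the median difference of EGR1OV from H/R was -0.37 beside 0.05. The share of calls that were higher was 60.3% in EGR1OV against Sham, 37.7% after H/R and 63.2% in EGR1OV against H/R, with median-ratio scaling 54.9%, 58.2% and 51.0%, and with quantile normalization 45.9%, 56.5% and 42.5%. With these scalings the collagens split 2 higher and 7 lower or 1 higher and 8 lower in EGR1OV against Sham. They split 4 and 0 after H/R, and 0 and 13 or 0 and 12 in EGR1OV against H/R. The share of all tested genes called was not counted under either scaling.

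**Figure D2:**
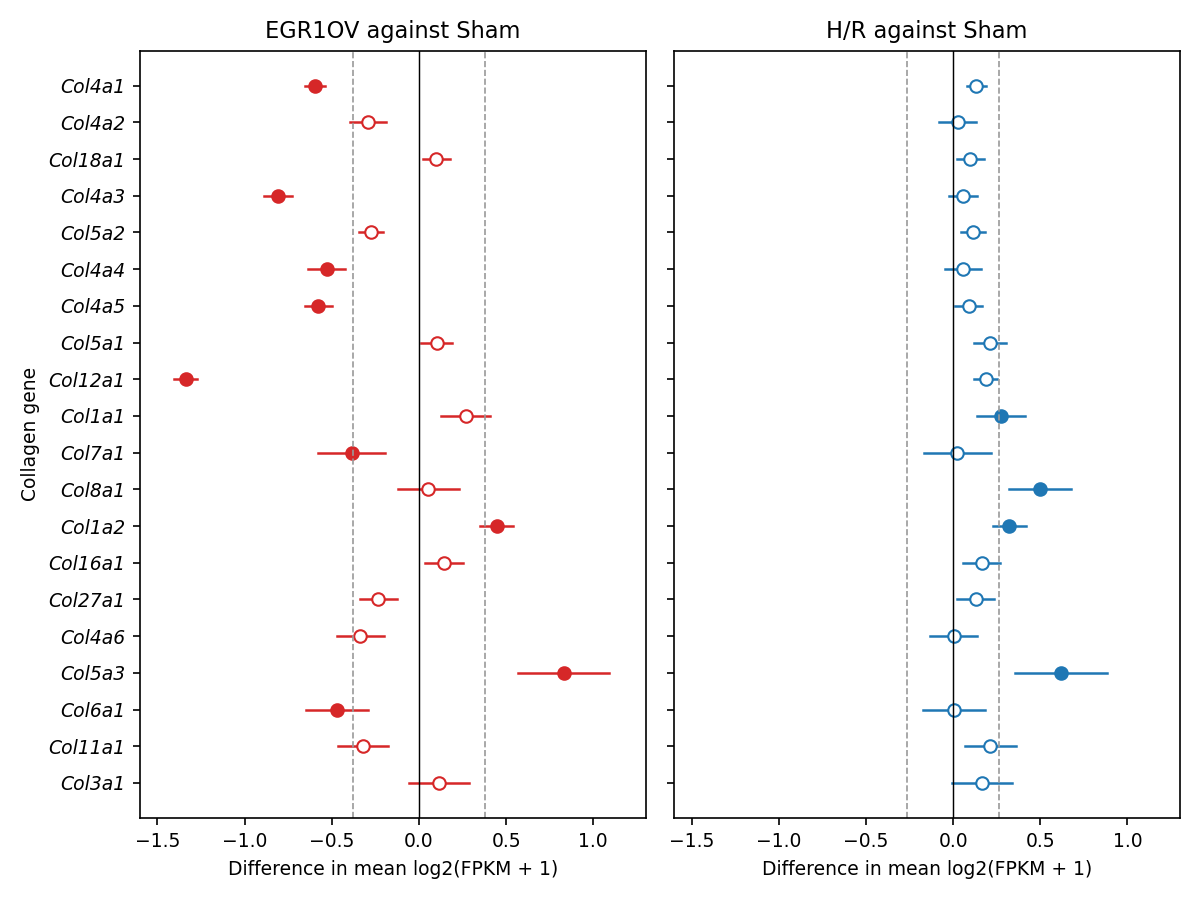
Difference of EGR1OV (left) and H/R (right) from Sham in mean log2(FPKM + 1) for the 20 tested collagens, with 95% confidence intervals from limma. Filled points passed an adjusted p of 0.05 and the fold threshold drawn as dashed lines, 1.3-fold on the left and 1.2-fold on the right. The filled points lie on both sides of 0 on the left and only above 0 on the right.

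The type IV genes were the most abundant group. All 6 were lower in EGR1OV than in Sham at an adjusted p under 0.05 (limma, Benjamini-Hochberg). On the log2(FPKM + 1) scale used for calls, 4 of them were past 1.3-fold. Over all genes tested, 19.8% were lower at that adjusted p with fold ignored. All 6 were also lower at that adjusted p with median-ratio scaling and with quantile normalization. They lie in 3 head-to-head pairs, in which neighbours are transcribed away from a shared stretch. Col4a4 and Col4a3 on chromosome 1 are 71 bases apart, Col4a6 and Col4a5 on chromosome X are 1308 bases apart, and Col4a1 and Col4a2 on chromosome 8 overlap by 22 bases at their 5′ ends. Both members of each pair were lower in EGR1OV, so the sequence between the paired starts is shown where no exon is annotated. In the lines that follow, from RefSeq for GRCm38.p6, capitals mark GC boxes (GGGCGG) and CCAAT boxes on either strand. The Col4a4 and Col4a3 interval is shown whole, on the plus strand (chr1:82586850-82586920).
Col4a4-Col4a3: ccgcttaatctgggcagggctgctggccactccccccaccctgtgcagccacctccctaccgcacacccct
The next line ends at the base before Col4a5 (chrX:141475169-141475384, plus strand).
Col4a5: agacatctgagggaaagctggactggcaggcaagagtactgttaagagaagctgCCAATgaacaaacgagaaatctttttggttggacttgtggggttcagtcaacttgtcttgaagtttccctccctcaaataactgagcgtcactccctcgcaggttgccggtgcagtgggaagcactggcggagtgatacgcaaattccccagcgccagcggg
The last of the set ends at the base before Col4a6 (chrX:141474077-141474326, minus strand).
Col4a6: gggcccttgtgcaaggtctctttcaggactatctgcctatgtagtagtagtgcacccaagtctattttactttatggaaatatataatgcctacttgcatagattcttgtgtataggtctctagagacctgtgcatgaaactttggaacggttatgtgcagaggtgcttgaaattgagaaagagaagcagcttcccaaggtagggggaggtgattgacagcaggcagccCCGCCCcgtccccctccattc
The Col4a4-Col4a3 interval held neither box, the Col4a5 stretch held a CCAAT box and the Col4a6 stretch a GC box.

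Col4a1 (ENSMUSG00000031502, chr8:11198423-11312826, minus strand, GRCm38) encodes the α1 chain, present in nearly every basement membrane, and was the most highly expressed collagen. Its FPKM was 549, 539.5 and 523 in Sham, 581, 599 and 587 after H/R and 354, 357 and 354 in EGR1OV. The 3 groups did not overlap, with H/R highest and EGR1OV lowest. The mean fell by 33.9% in EGR1OV, a log2 difference of -0.60 (SE 0.02, adjusted p = 6.7e-08 by limma), whereas the H/R difference of 0.13 had an adjusted p of 0.0106 and did not reach 1.2-fold.

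Col4a2, its partner in the α1α1α2 helix, read 334, 339 and 306 FPKM in Sham, 344, 319 and 334 after H/R and 269.5, 274 and 255 in EGR1OV. The EGR1OV libraries lay below all others, and Sham and H/R overlapped. The log2 difference from Sham was -0.29 in EGR1OV (adjusted p = 0.000724, limma), short of 1.3-fold, and 0.03 after H/R (adjusted p = 0.764). The ratio of Col4a1 to Col4a2 FPKM within a library was 1.65 ± 0.0594 in Sham (SD, n = 3), 1.78 ± 0.0938 after H/R and 1.33 ± 0.0470 in EGR1OV. All 3 EGR1OV ratios, at most 1.39, were below the lowest Sham ratio of 1.59. The exons of this pair overlap, and those of Col4a2 also overlap the antisense gene Gm15419 at a mean of 1.15 FPKM. Whether counting used the strand is not given in the sources used here.

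Col4a3, a chain of the mature kidney basement membrane network, was at 102, 97.8 and 92.0 FPKM in Sham, 102, 99.5 and 102 after H/R and 54.3, 55.5 and 55.6 in EGR1OV. The EGR1OV libraries were far below all others, and Sham and H/R overlapped. It had the largest change among the type IV genes, a log2 difference of -0.81 from Sham (SE 0.04, adjusted p = 1.11e-07, limma), and differed by 0.05 after H/R (adjusted p = 0.352). Part of an exon is shared with the opposite-strand transcript C430014B12Rik, whose mean was 0.720 FPKM.

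Col4a4, transcribed from the other side of the same 71 bases, was at 48.8, 47.7 and 43.4 FPKM in Sham, 48.7, 47.3 and 49.4 after H/R and 32.9, 32.5 and 30.6 in EGR1OV. EGR1OV was again below every other library while Sham and H/R overlapped. The log2 difference was -0.53 in EGR1OV (adjusted p = 1.57e-05, limma) and 0.06 after H/R (adjusted p = 0.477). The ratio of Col4a3 to Col4a4 was 2.09 ± 0.0359 in Sham, 2.09 ± 0.0196 after H/R and 1.73 ± 0.0874 in EGR1OV, so that the EGR1OV ratios lay below those of both other groups.

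Col4a5, the X-linked chain that joins α3 and α4, gave 47.1, 45.4 and 47.0 FPKM in Sham, 47.5, 49.8 and 51.4 after H/R and 30.1, 31.7 and 30.8 in EGR1OV. The 3 groups were separated, with EGR1OV lowest. The log2 difference was -0.58 in EGR1OV (adjusted p = 9.7e-07, limma) and 0.09 after H/R (adjusted p = 0.124). Col4a6, its neighbour, was expressed at 4.50 ± 0.446 FPKM in Sham, 4.50 ± 0.105 after H/R and 3.34 ± 0.0756 in EGR1OV (SD, n = 3), and the ratio of Col4a5 to Col4a6 was 10.4 ± 1.21, 11.0 ± 0.636 and 9.23 ± 0.190 in the same order. The Col4a6 difference in EGR1OV was -0.34 with an adjusted p of 0.00137 (limma), short of 1.3-fold on the log2(FPKM + 1) scale. That scale compresses changes at this level. The EGR1OV mean was 0.744 times that of Sham, a fall of more than 1.3-fold in FPKM itself.

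**Figure D3:**
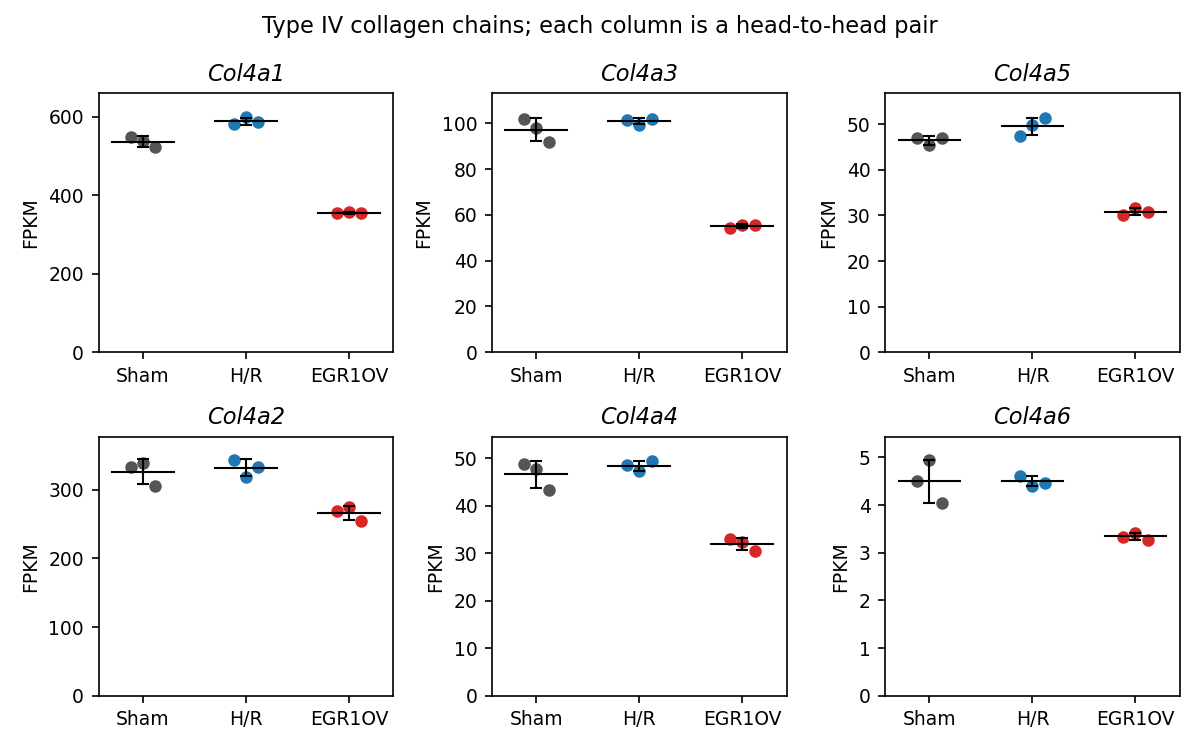
FPKM of the 6 type IV genes in each library, with the mean (line) and SD (error bar) of 3 libraries per group; the upper and lower panel of each column are a head-to-head pair. In all 6 panels the EGR1OV points lie below the Sham and H/R points, and the vertical axes start at 0.

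Among the fibrillar genes, direction depended on the gene. In EGR1OV, 2 of 8 tested were called higher (Col5a3 and Col1a2) and none lower, with 3 higher and 3 lower at an adjusted p under 0.05 when fold is ignored (limma), where 26.1% of all genes tested were higher and 19.8% lower. After H/R, 3 of 8 were called higher (Col5a3, Col1a2 and Col1a1) and none lower, beside 1.6% and 2.65% of all genes tested. All 8 differences were above 0, as were those of all 20 tested collagens, so this sign was not particular to the fibrillar genes. The share of all tested genes above 0 was not counted.

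The stretches before the RefSeq starts of Col5a3 and Col1a2, called higher in both comparisons with Sham, and of Col8a1, called higher after H/R alone, follow. Each comes from RefSeq for GRCm38.p6 and reads along its own gene. Capitals mark GC boxes, CCAAT boxes and the Egr1 consensus sites GCGTGGGCG and GCGGGGGCG on either strand, and a GC box may overlap an Egr1 site. Col5a3 is on the minus strand (chr9:20815068-20815317).
Col5a3: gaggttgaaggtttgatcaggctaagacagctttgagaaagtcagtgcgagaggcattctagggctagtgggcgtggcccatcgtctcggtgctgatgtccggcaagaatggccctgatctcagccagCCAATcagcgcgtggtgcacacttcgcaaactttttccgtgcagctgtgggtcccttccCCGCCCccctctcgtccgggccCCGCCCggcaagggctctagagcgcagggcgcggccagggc
For Col1a2, on the plus strand, only the part between annotated exons is given (chr6:4505370-4505492). The table's Col1a2 starts further upstream, at base 4504814, so this stretch lies inside the gene as the table has it.
Col1a2: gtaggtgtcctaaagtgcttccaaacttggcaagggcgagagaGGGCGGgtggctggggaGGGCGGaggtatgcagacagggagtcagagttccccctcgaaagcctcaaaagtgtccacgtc
Col8a1 is on the minus strand (chr16:57754738-57754987).
Col8a1: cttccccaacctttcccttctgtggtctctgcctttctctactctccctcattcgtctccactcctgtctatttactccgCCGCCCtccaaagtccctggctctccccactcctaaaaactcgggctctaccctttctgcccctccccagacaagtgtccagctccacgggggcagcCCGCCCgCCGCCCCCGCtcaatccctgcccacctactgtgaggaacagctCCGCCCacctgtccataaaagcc
The site GCGGGGGCG was found in 1 of the 34 collagen genes with a RefSeq promoter window (250 bases before to 50 after the start), that of Col8a1, and in 2.91% of all 32851 windows. The site GCGTGGGCG was found in 0 of the 34 and in 0.612% of all windows. A GC box was in the windows of 22 of the 34 genes and in 35.7% of all windows, a CCAAT box in 12 of 34 and 37.4%, and a TATA box (TATAAA) in 5 of 34 and 13.6%. The hypoxia response core ACGTG was in 5 of 34 and in 19.6% of all windows, among them Col1a2, Col4a4 and Col5a1. A match describes letters in the window and not a bound site.

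Col5a3 encodes the α3(V) chain, a minor chain of type V fibrils, and had the largest increase of any tested collagen in both comparisons with Sham. Its FPKM was 1.93, 1.64 and 1.61 in Sham, 3.43, 2.74 and 3.43 after H/R and 4.26, 4.35 and 3.03 in EGR1OV. Every H/R and EGR1OV library exceeded every Sham library, and H/R and EGR1OV overlapped. The EGR1OV mean was 2.25 times and the H/R mean 1.85 times that of Sham, log2 differences of 0.83 (SE 0.12, adjusted p = 0.000335) and 0.62 (SE 0.12, adjusted p = 0.0117) by limma. EGR1OV and H/R did not differ at the threshold, at 0.21 with a 95% interval of -0.05 to 0.47 (adjusted p = 0.166, limma).

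Col5a2, a major chain of type V and the most abundant fibrillar gene here, moved differently. It was at 43.9, 45.5 and 42.5 FPKM in Sham, 48.9, 47.1 and 46.7 after H/R and 35.9, 36.1 and 36.4 in EGR1OV. The groups did not overlap, with H/R above and EGR1OV below Sham. The log2 differences from Sham were 0.11 after H/R (adjusted p = 0.0465, limma) and -0.27 in EGR1OV (adjusted p = 7.41e-05), neither past its fold threshold, while EGR1OV was called lower than H/R at -0.39 (adjusted p = 6.59e-06). The latter became -0.37, below 1.3-fold, when H/R library 1 was left out.

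Col5a1, the other major chain of type V, averaged 25.6 ± 0.800 FPKM in Sham, 29.9 ± 0.870 after H/R and 27.6 ± 1.3 in EGR1OV (SD, n = 3). Its log2 difference was 0.21 after H/R (adjusted p = 0.0121, limma), short of 1.2-fold, and 0.10 in EGR1OV (adjusted p = 0.0678). The ratio of Col5a1 to Col5a2 was 0.584 ± 0.0152 in Sham, 0.629 ± 0.00567 after H/R and 0.764 ± 0.0400 in EGR1OV, with no overlap between groups. Exons of Col5a1 overlap the opposite-strand transcripts Gm13372 (mean 2.31 FPKM) and 2810430I11Rik (mean 0.198 FPKM).

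Type I collagen, the major fibril protein of scar, was expressed at a low level beside type IV. Col1a1 stood at 21.6, 21.6 and 20.2 FPKM in Sham, 24.5, 26.4 and 26.4 after H/R and 27.4, 26.6 and 23.1 in EGR1OV. All H/R and EGR1OV libraries were above all Sham libraries. The difference was 0.27 on the log2 scale in both, called after H/R at its lower fold threshold (adjusted p = 0.0235, limma) and not in EGR1OV (adjusted p = 0.00603), where 1.3-fold was not reached. The H/R call of Col1a1 was lost when any Sham library or H/R library 2 or 3 was left out (adjusted p from 0.0532 to 0.0776), and with all genes kept (0.0645).

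Col1a2, its partner chain, read 7.59, 7.04 and 7.04 FPKM in Sham, 9.45, 9.05 and 9.32 after H/R and 10.4, 10.4 and 9.78 in EGR1OV. The groups were ordered Sham, H/R and EGR1OV without overlap. The log2 difference from Sham was 0.32 after H/R (adjusted p = 0.00235, limma) and 0.45 in EGR1OV (adjusted p = 2.18e-05), and both were called. With quantile normalization the EGR1OV difference was 0.35, below 1.3-fold. Col1a1 to Col1a2 ratios averaged 2.93 ± 0.116 in Sham, 2.78 ± 0.171 after H/R and 2.52 ± 0.138 in EGR1OV, with Sham and H/R overlapping and EGR1OV below all Sham libraries. These RNA ratios are per kilobase of exon and rest on an exon length of 12426 bases for Col1a2 and 6563 bases for Col1a1, the summed length of all annotated exons, so their absolute level depends on the annotation.

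**Figure D4:**
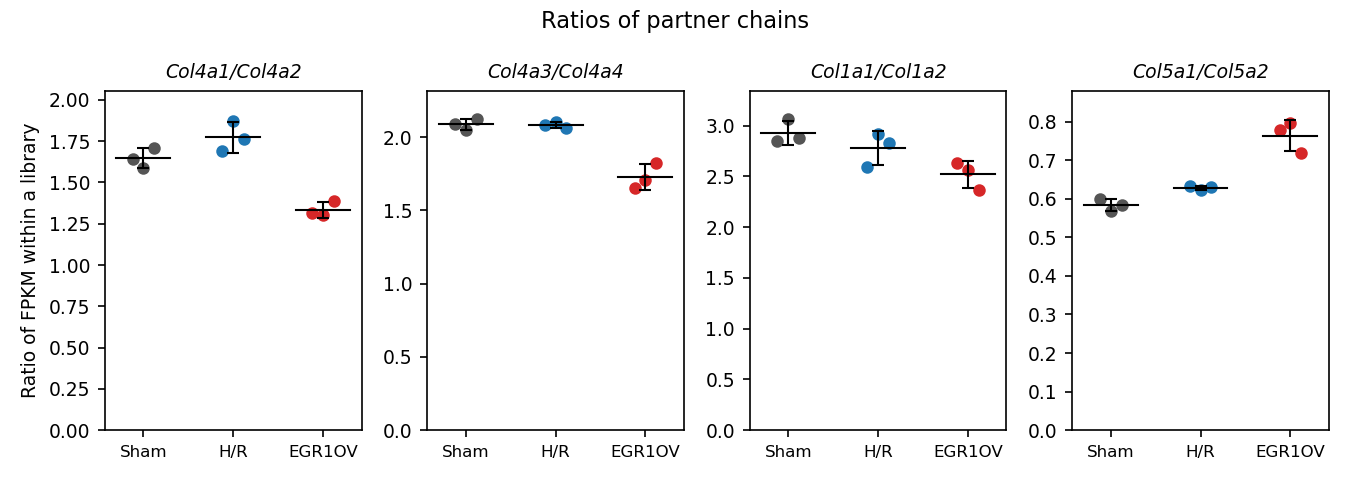
Ratio of the FPKM of partner chains within each library for 4 chain pairs, with the mean (line) and SD (error bar) of 3 libraries per group. Col4a1/Col4a2 and Col4a3/Col4a4 are lowest and Col5a1/Col5a2 highest in EGR1OV, and the vertical axes start at 0.

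Col11a1, a chain that sets fibril diameter in cartilage, was at 1.2, 1.25 and 1.13 FPKM in Sham, 1.44, 1.68 and 1.52 after H/R and 0.751, 0.792 and 0.718 in EGR1OV. Groups did not overlap, with H/R highest. Only the difference between EGR1OV and H/R was called, at -0.54 on the log2 scale (adjusted p = 0.000105, limma). Against Sham, EGR1OV was lower at -0.32 (adjusted p = 0.00276, limma), short of 1.3-fold on the log2(FPKM + 1) scale. The mean FPKM was 0.632 times that of Sham. The H/R difference was 0.21 (adjusted p = 0.0624, limma). The pseudocount of 1 understates the change of genes near this level. Col27a1, a fibrillar type known from cartilage, averaged 5.03 FPKM in Sham, 5.60 after H/R and 4.14 in EGR1OV. Col3a1, which accompanies type I in soft stroma, averaged 0.941, 1.18 and 1.10 FPKM in the same order. Neither was called in any comparison.

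Of the fibril-associated types, which sit on fibril surfaces, Col12a1 had the largest change of any tested collagen. Its FPKM was 33.5, 33.0 and 32.2 in Sham, 36.7, 38.3 and 37.7 after H/R and 12.1, 12.6 and 12.5 in EGR1OV. EGR1OV was far below the other groups and H/R above Sham, without overlap. The mean fell by 62.2% in EGR1OV, a log2 difference of -1.34 (SE 0.03, adjusted p = 6.32e-10, limma). The H/R difference of 0.19 passed the test (adjusted p = 0.00533) but not 1.2-fold. Col16a1, the other tested member of this class, averaged 6.96 FPKM in Sham, 7.92 after H/R and 7.80 in EGR1OV and was not called.

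The types that anchor or line epithelia and vessels moved in different ways. Col7a1, whose protein forms the anchoring fibrils under epithelia, was at 19.9, 17.5 and 16.3 FPKM in Sham, 18.7, 16.8 and 19.1 after H/R and 13.6, 14.7 and 12.1 in EGR1OV. EGR1OV was below all other libraries. Its log2 difference from Sham, -0.38 in EGR1OV (adjusted p = 0.00503, limma), only just passed 1.3-fold and became -0.31, below that fold, when Sham library 1 or EGR1OV library 3 was left out. Against H/R it was -0.41 (adjusted p = 0.00313, limma), and below 1.3-fold without H/R library 3 (-0.38) or EGR1OV library 3 (-0.34).

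Col8a1, a short-chain network collagen known from endothelial and injured vessel matrix, was at 10.04, 10.1 and 8.05 FPKM in Sham, 13.8, 14.3 and 12.8 after H/R and 10.2, 9.46 and 9.60 in EGR1OV. H/R was above all other libraries, and Sham and EGR1OV overlapped. The log2 difference was 0.50 after H/R (SE 0.08, adjusted p = 0.0058, limma) and 0.06 in EGR1OV, with a 95% interval of -0.12 to 0.23 (adjusted p = 0.605), and EGR1OV was called lower than H/R at -0.44 (adjusted p = 0.00121). Col8a1 was thus the tested collagen called higher after H/R and lower in EGR1OV than in H/R.

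Col6a1, a chain of the beaded filaments around cells, gave 2.22, 2.2 and 2.28 FPKM in Sham, 1.99, 2.30 and 2.47 after H/R and 1.13, 1.52 and 1.37 in EGR1OV. EGR1OV lay below all others. The log2 difference was -0.47 in EGR1OV (adjusted p = 0.00105, limma) and 0.01 after H/R (adjusted p = 0.977). Its partner Col6a2 was close to absent, with between 18 and 22 reads in Sham, between 2 and 15 after H/R and between 6 and 7 in EGR1OV, and Col6a3 had 6 to 19 reads over all libraries.

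Col18a1, a multiplexin of basement membranes and the source of endostatin, differed little. It was at 90.8, 90.0 and 86.2 FPKM in Sham, 96.3, 92.8 and 97.0 after H/R and 96.5, 98.6 and 91.4 in EGR1OV. Both treated groups lay above Sham without overlap, and the log2 differences of 0.10 in each (adjusted p = 0.103 after H/R and 0.041 in EGR1OV, limma) did not reach the fold thresholds. Col18a1 was thus the abundant basement membrane collagen that was not lower in EGR1OV.

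The other 23 collagen genes had a mean below 0.5 FPKM and were not tested with the rest. The highest was Col2a1, the cartilage fibril chain, at 0.366 to 0.625 FPKM, and the lowest was Col19a1, with 1 read in 1 library. With all genes kept, Col9a3, a chain of cartilage type IX, was called higher in EGR1OV at 0.53 on the log2 scale (adjusted p = 0.000875, limma). Its recovered reads were 18, 13 and 11 in Sham, 10, 25 and 14 after H/R and 47, 52 and 46 in EGR1OV. Every EGR1OV library was above every other.

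Col25a1, a transmembrane collagen known from neurons and muscle innervation, was at 1 to 3 reads in Sham and H/R and 16 to 17 in EGR1OV. Col23a1, also transmembrane, was at 6 to 12 reads in Sham and H/R and 17 to 27 in EGR1OV, and Col22a1, known from tissue junctions, at 7 to 18 against 21 to 27. In the opposite direction Col14a1, a fibril-associated type, was at 16 to 37 reads in Sham and H/R and 0 to 6 in EGR1OV. In all, 5 of the 23 (Col9a3, Col11a2, Col22a1, Col23a1 and Col25a1) had every EGR1OV library above every Sham and H/R library and 1 (Col14a1) had every one below, where the shares among all 15419 genes below 0.5 FPKM with any reads were 3.86% and 2.65%. With all genes kept, 8 of the 23 had an adjusted p under 0.05 in EGR1OV against Sham, against 4.86% of the same low genes. They were Col9a3, Col25a1, Col23a1, Col22a1 and Col14a1 (adjusted p = 0.000875, 0.00134, 0.00747, 0.017 and 0.0217, limma) and, less far apart, Col6a2, Col10a1 and Col17a1 (0.0294, 0.0312 and 0.0395). All but Col9a3 did so without reaching 1.3-fold on the log2(FPKM + 1) scale, which compresses changes at this level. The genes of this paragraph given by their reads were chosen after their values were seen. Col10a1, Col11a2, Col15a1, Col17a1, Col20a1, Col26a1 and Col8a2 ranged from 0 to 0.527 FPKM, and Col6a4, Col6a5, Col6a6, Col9a2, Col13a1, Col24a1 and Col28a1 had at most 9 reads in any library.

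Collagen chains are hydroxylated, folded, secreted, trimmed and cross-linked before they reach the matrix, and 5 lists of genes for these steps were read beside the chains. Their counts are to be read against the shares of all genes called, 9.87% higher and 6.51% lower in EGR1OV against Sham and 1.6% higher and 2.65% lower after H/R. Of 14 tested genes for prolyl and lysyl modification, 3 were called higher after H/R and none lower, and 2 were called higher in EGR1OV and none lower. The H/R calls were P4ha1 and P4ha2, catalytic subunits of prolyl 4-hydroxylase, at 0.47 and 0.29 on the log2 scale (adjusted p = 9.04e-05 and 0.00358, limma), and Plod2, the lysyl hydroxylase of the telopeptides, at 0.36 (adjusted p = 0.000159). P4ha1 stood at 43.4, 42.1 and 43.3 FPKM in Sham, 60.7, 60.4 and 57.9 after H/R and 41.9, 43.6 and 44.0 in EGR1OV. Sham and EGR1OV overlapped, and H/R was above both. P4ha2 was also higher than Sham in EGR1OV at 0.24 (adjusted p = 0.00122, limma), short of 1.3-fold. Its difference between EGR1OV and H/R was -0.05 (adjusted p = 0.33, limma). In EGR1OV the calls were Plod3, a lysyl hydroxylase that also adds glucose, at 0.73 (adjusted p = 2.35e-06, limma), and the prolyl 3-hydroxylase P3h2 at 0.53 (adjusted p = 0.00868). Set against H/R, Plod2 was lower in EGR1OV at -0.55 (adjusted p = 1.83e-07, limma). The list medians were 0.01 in both comparisons.

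Of 12 chaperone and secretion genes, 1 was called in EGR1OV and 0 after H/R by limma. In the latter, 5 had an unadjusted p under 0.05, all higher, and voom on recovered reads also called 0. Of these 5, Sec23a (0.21) and Creb3l2 (0.14) also passed after adjustment (adjusted p = 0.00717 and 0.0127, limma), short of 1.2-fold. The called gene was Creb3l1, a membrane-bound transcription factor known to act on type I collagen genes, at 1.2 on the log2 scale (adjusted p = 9.85e-08, limma). It read 11.99, 13.5 and 13.3 FPKM in Sham, 12.7, 13.8 and 13.4 after H/R and 32.1, 31.6 and 29.7 in EGR1OV. EGR1OV was far above both other groups, which overlapped. Against H/R, Sec23a, a coat protein of the vesicles that carry procollagen, was lower in EGR1OV at -0.49 (adjusted p = 2.81e-06, limma). Against Sham the EGR1OV difference of Sec23a was -0.29 (adjusted p = 0.000123, limma), short of 1.3-fold.

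Of 12 genes for procollagen processing and cross-linking, 2 were called higher and 4 lower in EGR1OV, and 2 higher and none lower after H/R. The lysyl oxidases went different ways. Lox was higher after H/R at 0.38 (adjusted p = 0.000493, limma), and Loxl3 was higher in EGR1OV at 1.01 (adjusted p = 1.15e-07). Loxl2, which acts on type IV collagen, was lower in EGR1OV than in Sham at -0.46 (adjusted p = 2.27e-07, limma). It was lower than in H/R at -0.70 (adjusted p = 1.06e-08). Its H/R difference from Sham was 0.24 (adjusted p = 0.000525, limma), short of 1.2-fold. The procollagen N-proteinase Adamts14 was higher in EGR1OV at 0.54 (adjusted p = 0.000187, limma). Tll1, a procollagen C-proteinase, was higher after H/R at 0.36 (adjusted p = 0.00438) and lower in EGR1OV at -0.52 (adjusted p = 3.95e-05).

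Of 8 collagen receptor and uptake genes, 4 were called higher and 1 lower in EGR1OV, and 2 higher after H/R. The integrin subunit Itga2, which binds fibrillar collagen, rose by 0.89 in EGR1OV (adjusted p = 5.21e-07, limma) and by 0.33 after H/R (adjusted p = 0.00438). Itga11, the subunit of another fibril receptor, rose by 0.66 in EGR1OV (adjusted p = 8.57e-05, limma), and the matrix receptor Cd44 rose by 0.53 in EGR1OV and 0.42 after H/R (adjusted p = 3.59e-06 and 0.000451). Itga1, whose integrin prefers type IV collagen, was the gene called lower in EGR1OV, at -0.52 from Sham (adjusted p = 5.44e-05, limma). Its difference from H/R was -0.61 (adjusted p = 1.65e-05, limma). Itgb1, the most abundant gene of this list, averaged 1271 FPKM in Sham and 1018 in EGR1OV. It was lower in EGR1OV at -0.32 (adjusted p = 9.73e-06, limma), short of 1.3-fold, and was named after its values were seen.

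Of 11 matrix partners of collagens, 6 were called lower and 1 higher in EGR1OV, and 2 higher and none lower after H/R. In EGR1OV the largest were Aebp1, a collagen-binding protein, at 0.70 (adjusted p = 3.69e-07, limma), and the adhesive glycoproteins Thbs1 at -0.69 (adjusted p = 1.77e-07) and Fn1 at -0.62 (adjusted p = 1.51e-07). The other 4 called lower were the fibrillin gene Fbn1 and the basement membrane genes Nid1, Nid2 and Hspg2, between -0.58 and -0.40, which were named after their values were seen because type IV collagen binds the products of the latter 3. Agrn, the other basement membrane proteoglycan of the list, was not called (0.09, adjusted p = 0.112, limma). After H/R, Thbs1 and Postn were higher, at 0.27 and 0.26 (adjusted p = 0.00167 and 0.0465, limma). The list median in EGR1OV was -0.40.

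**Figure D5:**
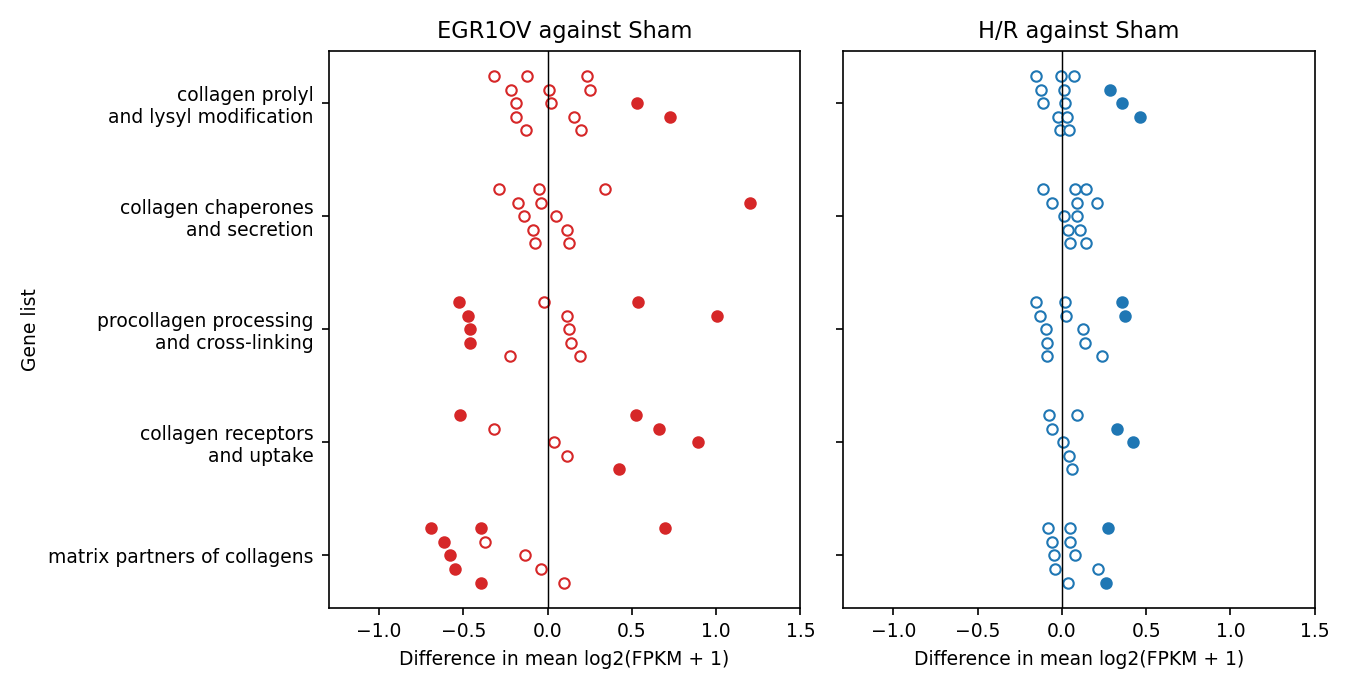
Difference of EGR1OV (left) and H/R (right) from Sham in mean log2(FPKM + 1) for the tested genes of 5 lists around collagen synthesis and binding. Each point is 1 gene, filled where called, and the vertical spread within a list only separates points. Among the matrix partners 6 filled points lie below 0 and 1 above on the left, and all filled points on the right lie above 0.

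Marker levels of other kidney cell types also differed in EGR1OV, and not all in the same direction. The summed FPKM of 9 fibroblast and pericyte markers lay between 9.12 and 9.66 in Sham, between 9.04 and 10.6 after H/R and between 7.72 and 8.28 in EGR1OV, with 7 of the 9 (Pdgfra, Dcn, Lum, Thy1, Fap, Dpt and Meox1) below 1 FPKM in every library. The 6 smooth muscle and mesangial markers summed to between 3148 and 3267 FPKM in Sham, between 2889 and 3099 after H/R and between 1221 and 1302 in EGR1OV, most of it Acta2, which was at 2873 to 2986 FPKM in Sham and 1101 to 1175 in EGR1OV. The 8 macrophage markers summed to 139.7 to 143.9, then 115.9 to 122.7 and 22.1 to 26.5 FPKM in the same order. The 7 endothelial markers summed to 11.5 to 12.4, 12.1 to 12.6 and 8.44 to 8.91 FPKM, with Kdr, Tek and Erg below 1 in every library. Cldn1, a junction gene of parietal cells and of tubules, went the other way, with a mean of 81.9 ± 3.23 FPKM in Sham (SD, n = 3), 91.1 ± 0.963 after H/R and 110.4 ± 6.73 in EGR1OV, and was called higher in EGR1OV (0.43 on the log2 scale, adjusted p = 4.84e-05, limma). Wt1 and Podxl, expressed in podocytes, averaged 3.45 and 5.79 FPKM in Sham and 4.62 and 5.93 in EGR1OV, and neither was called there. The part of other cell types in the lower type IV, Col12a1, Col6a1 and Col7a1 levels of EGR1OV was not tested.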

How the data were processed

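RNA sequencing covered 9 libraries, 3 each of Sham, H/R and EGR1OV, grouped by their titles. The authors deposited one table of FPKM per gene and library, with replicates not pooled. The submitters' processing notes name Bowtie2 2.2.3, HISAT2 2.1.0, TopHat2 and the build mm9, but gene positions did not follow mm9: 94.6% of them, and those of all 43 collagens, equalled GENCODE M21 (GRCm38), whose coordinates are given. The counting program and its use of strand are not given in the sources used here.

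FPKM are not counts, so log2(FPKM + 1) was fitted, for genes whose mean reached 0.5 FPKM, with limma 3.58.1 in R 4.3.3 (one fit for all groups, moderated with a trend), with Benjamini-Hochberg adjustment over 13985 genes. Genes were called at an adjusted p under 0.05 and 1.3-fold (1.2-fold for H/R against Sham). Log2 differences are on the log2(FPKM + 1) scale. Multiplying FPKM by the GENCODE exon length and by a depth for each library gave read numbers. The depth was itself set so that most low values came out whole, so wholeness is not an independent check. Of 162877 values between 1 and 1000 reads, 94.0% were whole within 0.02. Values of Col2a1, Col11a2 and Col17a1 were among those that were not. The read numbers were used for low genes and for a voom alternative, and the depths are the recovered depths given above. Scripts were tested on simulated data. Python 3.11.15 and pandas 2.3.3 prepared the tables. RefSeq promoter windows (GRCm38.p6) were found for 34 of the 43 collagens and 16 of the 20 tested; protein sequences were not used here. The summed level of 1 further marker list is not reported here.

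The collagens and the gene lists were chosen with earlier results of these data known. Values in every library were given for collagens called in any comparison and for the 6 with the highest mean; from each other list up to 3 called genes with the largest change were named per comparison. A total of 17 alternatives were run (pseudocount 0.1, no filter, median-ratio and quantile scaling, replicate block, fits of 2 groups, no fold threshold, voom, and leaving out each library).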

Additional observations from a re-analysis of the deposited data

Results flagged for a closer look

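The collagen genes Col12a1, Col4a1 and Col5a2 lay on opposite sides of Sham in H/R and EGR1OV, with an adjusted p under 0.05 by limma in both comparisons with Sham and in the direct comparison of EGR1OV with H/R, which tests the difference itself. For Col12a1 the difference of EGR1OV from H/R was -1.53 on the log2 scale (95% interval -1.59 to -1.46), for Col4a1 it was -0.73 (-0.78 to -0.67) and for Col5a2 it was -0.39 (-0.45 to -0.32). In each of them every H/R library was above and every EGR1OV library below every Sham library. The share of all tested genes that met the same rule was not counted, so the number of collagens is given without a comparison. The increase after H/R was below 1.2-fold in all 3 genes. With 3 libraries per group, single libraries were not screened for outlying values.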

How the results depend on the processing

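The number of called collagens was 9 in EGR1OV against Sham, 4 in H/R against Sham and 10 in EGR1OV against H/R. Without a fold threshold it was 17 in the first, 5 higher and 12 lower, and 8 in the second, all higher. In the third it was 1 higher and 14 lower. Over all genes tested, 26.1% were higher and 19.8% lower in the first without a fold threshold. Such shares were not counted for the other comparisons. Leaving out 1 library at a time gave 8 to 10, 3 to 4 and 9 to 11. Some alternatives called more. In EGR1OV against Sham, voom on recovered reads and a pseudocount of 0.1 each called 2 higher and 9 lower. By voom, 6 were called higher after H/R and 12 lower in EGR1OV against H/R. The shares of all genes called were not counted for voom, for the pseudocount of 0.1 or for the fits without 1 library. The counts under these alternatives are therefore given without a comparison. With the replicate number as a block the counts were 9, 4 and 10 and no call changed. The labels do not say that the numbers pair the samples. Deviations of same-numbered libraries correlated between -0.195 and 0.263, and those of differently numbered libraries between -0.222 and 0.179. With 3 libraries per group such values cannot settle whether the samples were paired. Of 23 called changes, 18 were kept under all 17 alternatives and none reversed. The others were lost at least once, with fewer libraries, another scaling or no filter: Col1a1 after H/R under 6 alternatives, Col1a2 in EGR1OV against Sham with quantile normalization (0.35, below 1.3-fold), Col7a1 in both EGR1OV comparisons (-0.31 against Sham without Sham library 1 or EGR1OV library 3, and -0.38 and -0.34 against H/R without H/R library 3 or EGR1OV library 3), and Col5a2 in EGR1OV against H/R (-0.37 without H/R library 1). Recovered depth differed by at most 1.14 times between libraries, and genes under 0.5 FPKM rested on few reads.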
